A study of Mus musculus with 30 samples.

Results

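Mouse induced pluripotent stem cells (iPSC) made with the OSKM factors were compared with cultured somatic cells, and the genes that changed the same way in 2 separately normalized sets of arrays are described here. OSKM stands for the transcription factors Oct4 (encoded by Pou5f1), Sox2, Klf4 and c-Myc. The comparison used 6 of the 30 samples of the series: OSKM iPS1 and the mouse embryonic fibroblasts MEF1 in set 1, and OSKM iPS2 with mouse neonatal fibroblasts (MNF), mouse adult lung fibroblasts (MAF) and adipose-derived stem cells (ADSC) in set 2. In each set the iPSC line was set against the somatic cells of that set (in set 2, against the mean log2 of the 3), and the 2 differences were averaged. Both OSKM lines came from embryonic fibroblasts and, like the somatic cells, received no chemical treatment, per the labels. MEF1 and both OSKM lines were of embryonic origin, MNF neonatal, and MAF and ADSC adult. Each OSKM sample is a single cell line, no strain or genotype is named in the labels, and set 2 holds no embryonic fibroblasts. MNF, MAF and ADSC are therefore not the cell type that OSKM iPS2 was made from. The OSKM line, the somatic cells compared with it and the set change together and cannot be told apart. The iPSC and the embryonic stem cells (ESC) were kept over mitomycin C-treated embryonic fibroblasts as feeders, while the somatic cells were grown in serum-containing medium. The ESC line R1 (ESC1, set 1) and the ESC line TT2 (ESC2, set 2) served as pluripotent references measured in the same sets, and the chemically induced lines of both sets entered the fit only to estimate the spread.

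Reprogramming replaces the transcription programme of a differentiated cell by that of the early embryo's pluripotent cells. Pluripotent cells in culture run a self-sustaining network of transcription factors around Oct4, Sox2, Nanog and Esrrb, grow as epithelial-like colonies, and cycle fast with a short G1 phase. Fibroblasts and adipose-derived stem cells are mesenchymal: they secrete extracellular matrix, carry stress fibres and caveolae, and keep Hox and other position-specific factors from the body site they came from.

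Values are array intensities on a linear scale, 1 column per sample, and each column appears to be the average of the 3 replicates that the design text gives per sample. Set 1 holds 13989 probes and set 2 holds 15437. Median intensities were 326 to 328 in the samples of set 1 and 357 to 359 in those of set 2. After 1 probe was kept per gene, 11406 features were measured in both sets, of which 10939 had a gene symbol. Where 3 values are given for the somatic samples of set 2, their order is MNF, MAF, ADSC, and the value before "against" is that of the OSKM line. Differences are on the log2 scale, where 1 is 2-fold, and a gene was called at a Benjamini-Hochberg adjusted p under 0.05 in limma, a mean difference of at least 1 and the same sign in both sets. Because set 1 has 1 sample in each arm, the SE comes from the spread among the chemically induced lines and among the 3 somatic samples of set 2, and the OSKM lines and MEF1 are assumed to vary like them.

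Of the 11406 features, 1313 (11.5%) were called higher and 1196 (10.5%) were called lower in OSKM iPSC. With gene symbols these were 1271 higher and 1151 lower. Over 8-fold differences were measured for 251 of the features called higher and 289 of those called lower. In set 1, 2180 features were at least 2-fold higher and 2219 at least 2-fold lower; in set 2 the numbers were 2379 and 1788. Of the features at least 2-fold higher in set 1, 58.7% were also at least 2-fold higher in set 2, where 20.9% of all features were. For the features lower in set 1 the share was 55.4%, where 15.7% of all were. At least 2-fold changes in opposite directions were measured for 53 features higher in set 1 and 46 higher in set 2. The median mean difference over all features was 0.10. Without OSKM iPS2, which leaves set 1 alone in the comparison, the calls numbered 419 higher and 555 lower. Without OSKM iPS1 or without MEF1, each of which leaves set 2 alone, they numbered 899 and 556. Without MNF, MAF or ADSC they numbered 1202 to 1522 higher and 1169 to 1309 lower.

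**Figure D1:**
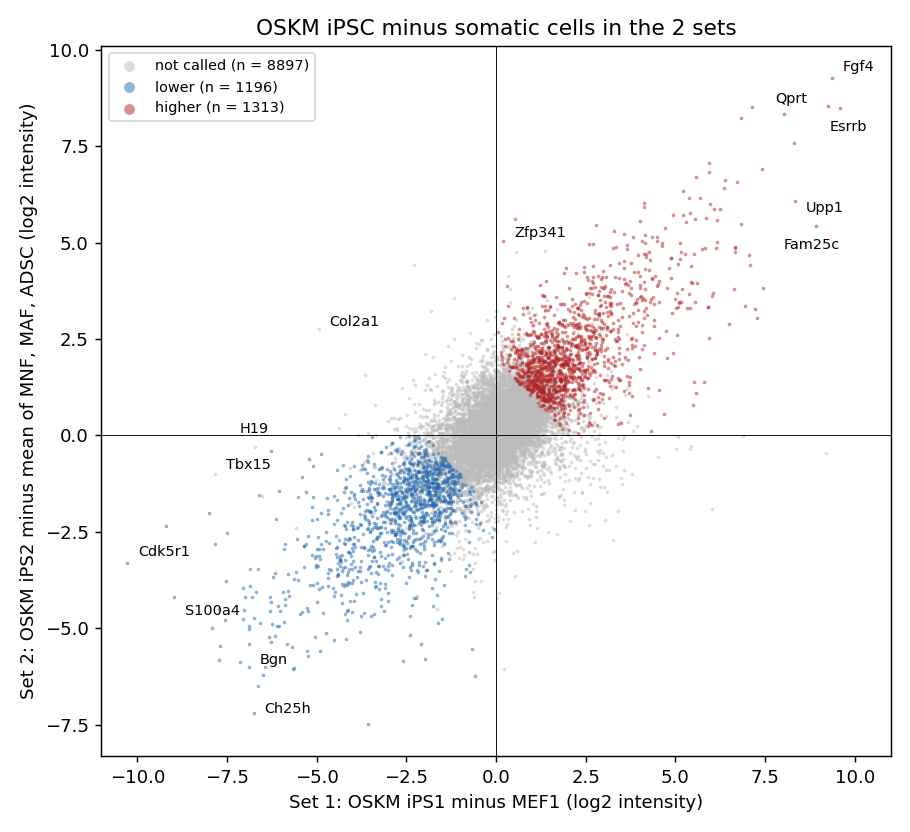
Each point is a feature, with the log2 intensity difference of OSKM iPS1 minus MEF1 (set 1) on the x axis and of OSKM iPS2 minus the mean of MNF, MAF and ADSC (set 2) on the y axis; red and blue mark the 1313 features called higher and the 1196 called lower, grey the rest. Fgf4 and Esrrb lie at the upper right end and Ch25h at the lower left, while Col2a1 lies in the quadrant of opposite signs.

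The labels were checked against defining markers. Of the pluripotent markers, Pou5f1, Zfp42, Esrrb and Utf1 were called higher in OSKM iPSC, and Nanog was not called (2.16, adjusted p = 0.207 in limma). Sox2 was measured only in set 1, at 16218 in OSKM iPS1 and 285 in MEF1. Fibroblast markers were low in the OSKM lines: Thy1 was called lower, S100a4 was 66.1 against 33191 in set 1 and 1158 against 17931, 17146 and 30317 in set 2, and Dcn, measured only in set 2, was 44.9 in OSKM iPS2 against 10669, 39921 and 25295. For ADSC, the adipocyte gene Adipoq, measured only in set 2, was 33.6 in OSKM iPS2 against 50.8, 34.3 and 33 in MNF, MAF and ADSC, and Lpl was highest in MNF (1054 against 2896 in set 1 and 1442 against 45641, 4414 and 4815 in set 2), so Adipoq and Lpl did not set ADSC apart. Cebpa, another adipose marker, was called lower in OSKM iPSC (-2.42, adjusted p = 0.0121 in limma). That call was lost without OSKM iPS2, and also without OSKM iPS1 or MEF1. Over all features the log2 intensities of OSKM iPS1 correlated with those of ESC1 at r = 0.95 and with those of MEF1 at r = 0.785, and OSKM iPS2 correlated with ESC2 at r = 0.945 and with MNF, MAF and ADSC at r = 0.784, 0.785 and 0.814 (across features, a description).

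Among the 10 largest rises were 5 regulators or markers of the pluripotent state that were near the low end of the scale in every somatic sample. Fgf4, a growth factor made by pluripotent cells, was 27077 in OSKM iPS1 and 41.2 in MEF1, and 47933 in OSKM iPS2 against 94.7, 72.8 and 68.8 in MNF, MAF and ADSC. Each OSKM line was far above every somatic sample, and the difference was 9.31 ± 0.36 (SE, adjusted p = 7.78e-08). Esrrb, an orphan nuclear receptor that sustains naive self-renewal, was 32787 in OSKM iPS1 and 42.2 in MEF1, and 18292 in OSKM iPS2 against 49.7, 44.9 and 57.4 in MNF, MAF and ADSC, with a difference of 9.05 ± 0.43 (SE, adjusted p = 2.36e-07). Fbxo15, an F-box gene long used as a reporter of reprogramming, was 27652 in OSKM iPS1 and 45.2 in MEF1, and 17312 in OSKM iPS2 against 31.2, 62.4 and 52.8 in MNF, MAF and ADSC. Its difference was 8.89 ± 0.41 (SE, adjusted p = 2.17e-07). Tfcp2l1, another transcription factor of the naive network, was 14374 against 45.2 in set 1 and 7911 against 29.3, 42.9 and 56.4 in set 2, giving 7.94 ± 0.46 (SE, adjusted p = 1.27e-06). Zfp42 (Rex1), a zinc finger marker of naive cells, was 5447 against 31.9 in set 1 and 3504 against 35.5, 22.7 and 30.1 in set 2, giving 7.17 ± 0.40 (SE, adjusted p = 1.27e-06). Both OSKM lines were above every somatic sample of their set for these 5 genes, as for 29% of all features and 98.5% of those called higher, so this follows from their choice among the largest rises. The ESC of the same sets were high too, with Esrrb at 19772 in ESC1 and 27116 in ESC2 and Zfp42 at 3312 in ESC1 and 7111 in ESC2.

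The proximal promoters of 2 of these risers and of a gene that fell held a short motif of the reprogramming factors, and they are printed to show where those letters lie. The windows run from 250 bases before to 50 after the RefSeq start in GRCm38.p6, in the direction of transcription, and capitals mark the matches. The Zfp42 window (chr8:43306960-43307259, minus strand) holds the octamer ATTTGCAT, first base at -186, and the Klf motif CCACACCC, first base at -75. The Esrrb window (chr12:86360867-86361166, plus strand) holds the Sox motif CCATTGT at 32 after the start. The Tnc window (chr4:64046966-64047265, minus strand) holds the octamer ATGCAAAT at -116.
Zfp42: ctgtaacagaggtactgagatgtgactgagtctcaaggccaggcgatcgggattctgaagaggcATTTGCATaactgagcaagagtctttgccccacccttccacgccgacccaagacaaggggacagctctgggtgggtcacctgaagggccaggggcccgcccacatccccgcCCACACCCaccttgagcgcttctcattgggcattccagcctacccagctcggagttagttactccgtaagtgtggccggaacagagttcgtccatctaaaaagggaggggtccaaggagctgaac
Esrrb: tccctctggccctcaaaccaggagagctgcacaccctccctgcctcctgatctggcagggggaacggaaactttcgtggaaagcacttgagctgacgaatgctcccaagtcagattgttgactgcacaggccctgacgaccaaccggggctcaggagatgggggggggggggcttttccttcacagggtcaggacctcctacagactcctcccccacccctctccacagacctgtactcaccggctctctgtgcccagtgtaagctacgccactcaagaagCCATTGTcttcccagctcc
Tnc: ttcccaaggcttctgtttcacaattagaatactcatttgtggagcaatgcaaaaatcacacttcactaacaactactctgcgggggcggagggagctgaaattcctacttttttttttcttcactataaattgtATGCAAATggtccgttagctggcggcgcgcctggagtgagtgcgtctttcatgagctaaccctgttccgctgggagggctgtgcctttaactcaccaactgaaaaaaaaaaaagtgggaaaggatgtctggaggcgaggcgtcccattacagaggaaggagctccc
Windows were listed for 8756 of the 10939 tested genes. The octamer ATGCAAAT, searched on both strands, was in 1.56% of windows of genes called higher, 1.39% of those called lower and 1.54% of all tested. For the Sox motif ACAATGG the shares were 2.34, 1.39 and 2.09%, for the Klf motif CCACACCC 3.80, 3.86 and 3.83%, and for the E-box CACGTG, a site read by Myc and other factors, 10.6, 8.69 and 9.66%. A match is a description of these letters and not a site of binding. The median GC content of the windows was 59.7% for genes called higher and 63.0% for genes called lower.

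The other genes among the 10 largest rises were Qprt, Ooep, Upp1, 1700097N02Rik and Fam25c. Qprt, an enzyme of de novo NAD synthesis, was 26120 in OSKM iPS1 and 99 in MEF1, and 24656 in OSKM iPS2 against 82.7, 67.9 and 77.5 in MNF, MAF and ADSC. Its difference was 8.19 ± 0.34 (SE, adjusted p = 7.78e-08), and the somatic samples lay close together. Ooep, an oocyte-expressed factor needed in the early embryo, was 18134 against 129 in set 1 and 21545 against 78.5, 60.5 and 42.9 in set 2, giving 7.82 ± 0.32 (SE, adjusted p = 7.78e-08). Upp1, which splits uridine, was 20120 against 61.8 in set 1 and 41898 against 57.4, 5073 and 836 in set 2, giving 7.21 ± 1.29 (SE, adjusted p = 0.0023). MAF stood above the other somatic samples for Upp1 and still lay below OSKM iPS2. The uncharacterised transcript 1700097N02Rik was 5662 against 49.9 in set 1 and 14423 against 39.6, 40.9 and 68.8 in set 2, giving 7.53 ± 1.07 (SE, adjusted p = 0.000536), while the ESC were lower (952 in ESC1 and 1334 in ESC2). Fam25c was 13351 against 27.4 in set 1 and 3107 against 273, 35.4 and 38.5 in set 2, giving 7.18 ± 0.92 (SE, adjusted p = 0.000262). With intensities under 50 set to 50, the differences of these 10 genes ranged from 6.45 for Zfp42 to 9.17 for Fgf4.

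**Figure D2:**
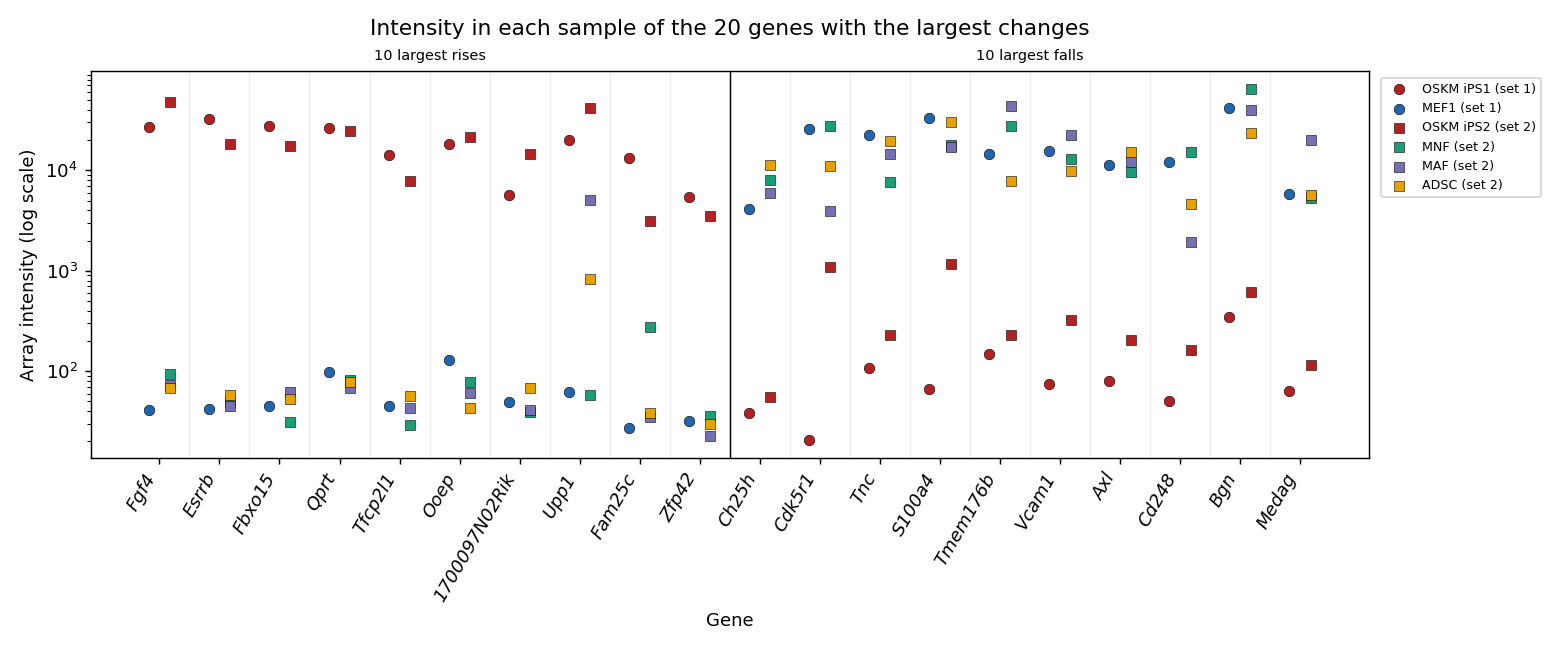
Array intensity (log axis) in each of the 6 samples for the 10 genes with the largest rises and the 10 with the largest falls in OSKM iPSC; circles are set 1, squares set 2, red the OSKM lines, and each point is 1 sample. For all 20 genes the OSKM point of a set lies on the same side of every somatic point of that set, as for most called features.

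Of the 10 genes with the largest falls, 5 code for matrix or surface proteins of mesenchymal cells (Tnc, Bgn, Vcam1, Axl and Cd248). Ch25h, which makes 25-hydroxycholesterol, was 38.1 in OSKM iPS1 and 4130.2 in MEF1, and 55.7 in OSKM iPS2 against 8056, 5939.7 and 11395 in MNF, MAF and ADSC. The difference was -6.98 ± 0.66 (SE, adjusted p = 4.22e-05), and the ESC were as low (34.6 in ESC1 and 43.8 in ESC2). Tnc, the matrix glycoprotein tenascin C whose promoter is printed above, was 107 against 22513 in set 1 and 231 against 7708, 14720 and 19548 in set 2, giving -6.77 ± 0.90 (SE, adjusted p = 0.000353). Bgn, the proteoglycan biglycan, was 348 against 41497 in set 1 and 612 against 64933, 39774 and 23716 in set 2, giving -6.45 ± 0.73 (SE, adjusted p = 0.000136). The MNF value of Bgn is close to the usual upper limit of scanner intensities. Among surface proteins, Vcam1, an adhesion molecule, was 75.2 against 15521 in set 1 and 325 against 13006, 22427 and 9959 in set 2, giving -6.57 ± 0.73 (SE, adjusted p = 0.000123). The receptor tyrosine kinase Axl was 80.8 against 11311 in set 1 and 205 against 9702, 12012 and 15150 in set 2, giving -6.51 ± 0.52 (SE, adjusted p = 1.44e-05). Cd248 (endosialin), a stromal marker, was 50 against 12017 in set 1 and 161 against 15318, 1938 and 4624 in set 2, giving -6.46 ± 0.77 (SE, adjusted p = 0.000172). Tmem176b was 147 against 14633 in set 1 and 231 against 27381, 43312 and 7851 in set 2 and Medag, named for adipogenesis, was 63.9 against 5794 in set 1 and 115 against 5278, 20003 and 5748 in set 2; their differences were -6.57 ± 0.82 (SE, adjusted p = 0.000226) and -6.35 ± 0.60 (SE, adjusted p = 4.22e-05).

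Cdk5r1 and S100a4, both among the largest falls, had their lower value in OSKM iPS1. Cdk5r1, an activator of the kinase Cdk5, was 20.7 in OSKM iPS1 and 25711 in MEF1, and 1079.7 in OSKM iPS2 against 27605, 3967 and 11068 in MNF, MAF and ADSC. OSKM iPS2 lay between OSKM iPS1 and the somatic samples, the differences were -10.28 in set 1 and -3.30 in set 2, and the mean was -6.79 ± 1.14 (SE, adjusted p = 0.00152). S100a4 (fibroblast-specific protein) was 66.1 in OSKM iPS1 and 33191 in MEF1, and 1158 in OSKM iPS2 against 17931, 17146 and 30317 in MNF, MAF and ADSC, with -8.97 in set 1 and -4.18 in set 2 and a mean of -6.58 ± 1.00 (SE, adjusted p = 0.000827). Set 1 minus set 2 was -6.98 ± 2.27 (SE, adjusted p = 0.635) for Cdk5r1 and -4.79 ± 2.00 (SE, adjusted p = 0.764) for S100a4, and neither was called. Leaving out OSKM iPS1 or MEF1 ended the call for Cdk5r1 (adjusted p = 0.155) and S100a4 (adjusted p = 0.0503).

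The reprogramming factors themselves gave an incomplete picture on this array. Pou5f1 was 331 in OSKM iPS1 and 39.2 in MEF1, and 1122 in OSKM iPS2 against 148, 96.6 and 437 in MNF, MAF and ADSC. Both OSKM lines were above every somatic sample of their set, as for most features called higher. The difference was 2.84 ± 0.58 (SE, adjusted p = 0.00469), and the ESC were 772 in ESC1 and 1166 in ESC2. No call was made for Pou5f1 (adjusted p = 0.0561) without OSKM iPS2. Klf4 was measured only in set 2, at 829.8 in OSKM iPS2 against 318, 705 and 1150.4 in MNF, MAF and ADSC, so OSKM iPS2 lay within the somatic range. Nanog, a central factor of the network, was 569 in OSKM iPS1 and 81.8 in MEF1, and 285 in OSKM iPS2 against 106, 93.2 and 99 in MNF, MAF and ADSC. It was above the somatic samples in both lines but was not called, with 2.16 ± 1.16 (SE, adjusted p = 0.207), and the ESC were 158 in ESC1 and 5349.9 in ESC2. Myc was not measured in these sets. Whether these probes also read introduced copies of the factors is not stated.

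Most pluripotency regulators rose. Of 19 measured, 16 were called higher and 0 lower, with a median difference of 4.23, against 11.5% of all features called higher and a median of 0.10. The 3 not called were Nanog, Rest and Tbx3, a T-box factor with 2.90 in set 1 and -0.37 in set 2. All 16 stayed called without OSKM iPS1 and 13 without OSKM iPS2. The list's summed intensity was 154280 in OSKM iPS1 and 6097 in MEF1, and 104070 in OSKM iPS2 against 6162, 8522 and 7509 in MNF, MAF and ADSC. Of 12 genes of pluripotency signalling, 5 were called higher, 1 lower and 6 were not called. Lefty1, an inhibitor of Nodal, was 4946 against 243 in set 1 and 9119 against 150.4, 303 and 381 in set 2, giving 4.74 ± 0.83 (SE, adjusted p = 0.00206); its relative Lefty2 was not called, at 3.09 ± 1.07 (SE, adjusted p = 0.0575). Eras, a Ras protein of ESC, was 2617 against 127 in set 1 and 2613 against 245, 130.2 and 119 in set 2, giving 4.21 ± 0.45 (SE, adjusted p = 9.84e-05). Stat3, which relays the LIF signal that ESC depend on, was the member called lower: it was 61.5 against 836 in set 1 and 45.9 against 359, 1835 and 394 in set 2, giving -3.78 ± 0.59 (SE, adjusted p = 0.000929), and the ESC were as low (43.2 in ESC1 and 59.4 in ESC2). These OSKM and ESC values lay near the low end of the scale, so the size of the difference is uncertain. Stat3 made up 8.33% of the list, where 10.5% of all features were called lower. Id3, a target of BMP signalling, was not called, with -2.04 ± 1.43 (SE, adjusted p = 0.34). For Lefty1 (adjusted p = 0.0596), the call did not hold without OSKM iPS2.

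Factors of the primed state, which follows implantation, were in part above the somatic level. The primed list had 57.1% called higher, against 11.5% of all features. Of 7 measured, 4 were called higher and 0 lower, and of the calls 1 held without OSKM iPS2 and 4 without OSKM iPS1. Otx2, a homeobox factor, was 280.5 against 28.5 in set 1 and 1001 against 23.8, 21.7 and 32.1 in set 2, giving 4.30 ± 0.78 (SE, adjusted p = 0.00252). Sox3 was 331 against 70.4 in set 1 and 1517 against 108, 63.4 and 78.9 in set 2, giving 3.23 ± 0.41 (SE, adjusted p = 0.000247), and Zic2, a zinc finger factor, was 257 against 49.9 in set 1 and 605 against 80.2, 57.4 and 54.7 in set 2, giving 2.81 ± 0.40 (SE, adjusted p = 0.000511). For these 3 genes OSKM iPS2 was higher than ESC2 (451 in ESC1 and 128 in ESC2 for Otx2, 165 in ESC1 and 232 in ESC2 for Sox3, 50.9 in ESC1 and 171 in ESC2 for Zic2). In set 1, OSKM iPS1 was below ESC1 for Otx2 and above it for Sox3 and Zic2. None of the 3 was called against ESC. Mixl1 and Wnt3, markers of the primitive streak, were not called, at 0.30 ± 0.33 (SE, adjusted p = 0.561) and -0.20 ± 0.26 (SE, adjusted p = 0.628). Leaving out OSKM iPS2 ended the call for Otx2 (adjusted p = 0.122) and Sox3 (adjusted p = 0.0503).

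Germline genes had a list median of 4.27, the highest of the lists with 7 or more measured genes: 9 of 13 (69.2%) were called higher and 0 lower, where 11.5% of all features were called higher. Mageb16, an X-linked testis gene, was 2479 against 40.2 in set 1 and 3708 against 55.4, 20.6 and 18.2 in set 2, giving 6.51 ± 0.46 (SE, adjusted p = 7.45e-06). Rhox5, a homeobox gene of the X-linked Rhox cluster, was 10047 against 162 in set 1 and 10174 against 49.7, 74.8 and 194 in set 2, giving 6.39 ± 0.75 (SE, adjusted p = 0.000163). Tdrd12, which acts in piRNA production, was 2621 against 42.2 in set 1 and 4237 against 87.6, 56.3 and 57.4 in set 2, giving 5.98 ± 0.35 (SE, adjusted p = 1.27e-06). The groups did not overlap for these 3 genes, as for most features called higher. Ddx4, a marker of committed germ cells, was not called (0.44 ± 0.63 SE, adjusted p = 0.662), nor was Tex101 (0.60 ± 0.46 SE, adjusted p = 0.394). Of the 9 calls, 7 remained without OSKM iPS2 and 8 without OSKM iPS1.

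About as many members were called as not in the lists of epithelial adhesion, where the calls were rises, and of mesenchymal transcription factors, where they were falls. The epithelial list had 53.3% called higher, against 11.5% of all features. Of 15 epithelial genes, 8 were called higher and 0 lower (median 1.58, and of the calls 5 held without OSKM iPS2 and 5 without OSKM iPS1). Epcam, an adhesion molecule of epithelia and ESC, was 931 in OSKM iPS1 and 26.1 in MEF1, and 1404 in OSKM iPS2 against 228, 57.4 and 157 in MNF, MAF and ADSC, and the difference was 4.31 ± 0.56 (SE, adjusted p = 0.0003). The membrane serine protease St14 was 2706 against 27.4 in set 1 and 1792 against 144, 97.7 and 154 in set 2, giving 5.21 ± 0.81 (SE, adjusted p = 0.000929), and its inhibitor Spint1 was 5040.1 against 33.9 in set 1 and 2354 against 384, 182 and 208 in set 2, giving 5.24 ± 0.59 (SE, adjusted p = 0.000128). Cldn6, a tight junction claudin, was 2113 against 89.9 in set 1 and 2181 against 143, 131 and 134 in set 2, giving 4.28 ± 0.85 (SE, adjusted p = 0.0041). Both OSKM lines were above every somatic sample for these genes, as for most features called higher. Krt8, a simple epithelial keratin, was not called (1.32 ± 1.56 SE, adjusted p = 0.591): ADSC held the highest value, 663 against 225 in set 1 and 1962 against 254, 681 and 4569 in set 2. Without OSKM iPS2 the call was lost for Cldn6 (adjusted p = 0.0547). Of 15 mesenchymal transcription factors, 0 were called higher and 8 lower (median -1.92, and of the calls 5 held without OSKM iPS2 and 4 without OSKM iPS1), where 10.5% of all features were called lower. Snai2 (Slug), which represses epithelial genes, was 56.1 against 3328 in set 1 and 75.9 against 527, 2682 and 2142 in set 2, giving -5.07 ± 0.69 (SE, adjusted p = 0.000423). Runx1 was 156 against 884 in set 1 and 122 against 853, 785 and 808 in set 2, giving -2.62 ± 0.34 (SE, adjusted p = 0.000275), with the somatic samples close together. Prrx2, a homeobox factor of limb and skin mesenchyme, was 53.8 against 3187 in set 1 and 146 against 2300, 1831 and 250.3 in set 2, giving -4.35 ± 0.91 (SE, adjusted p = 0.00564), and Nfia was 74.1 against 1164 in set 1 and 109.5 against 4557, 2297 and 309 in set 2, giving -3.86 ± 0.82 (SE, adjusted p = 0.0058). No call was made for Nfia (adjusted p = 0.078) without OSKM iPS2. Prrx2 (adjusted p = 0.137) lost the call without OSKM iPS1 or MEF1.

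Every matrix gene that could be tested was called lower. Of 31 genes listed, 12 were measured in both sets and 7 in 1 set only. All 12 were called lower, where 10.5% of all features were. Their median was -4.75, the lowest of the lists with 7 or more measured genes. Col6a1, a chain of collagen VI, was 290.2 in OSKM iPS1 and 34614 in MEF1, and 359 in OSKM iPS2 against 52470, 12881 and 5270 in MNF, MAF and ADSC, and the difference was -6.15 ± 0.76 (SE, adjusted p = 0.000215). Loxl1, which cross-links elastin, was 518 against 31255 in set 1 and 834 against 33465, 24472 and 16667 in set 2, giving -5.38 ± 0.54 (SE, adjusted p = 6.86e-05). The summed intensity of the 12 genes was 7255 in OSKM iPS1 and 269850 in MEF1, and 8462 in OSKM iPS2 against 251470, 132640 and 133190 in MNF, MAF and ADSC; the ESC, grown on the same kind of feeders, had 6769 in ESC1 and 10088 in ESC2. RNA from feeder fibroblasts in the iPSC samples was not tested. Of the 12 calls, 10 held without OSKM iPS2 and 9 without OSKM iPS1. Col1a1, the usual fibroblast collagen, was not measured in these sets.

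Most contractile, caveolar, surface and secreted products of mesenchymal cells on the lists were called lower, against 10.5% of all features. Of 15 contractile and caveolar genes, 14 were called lower and 0 higher (median -3.34). Cav1, the coat protein of caveolae, was 184 in OSKM iPS1 and 38488 in MEF1, and 642 in OSKM iPS2 against 22794, 6605 and 20230 in MNF, MAF and ADSC, giving -6.10 ± 0.83 (SE, adjusted p = 0.000404). Myl9, a light chain of smooth muscle myosin, was 184 against 21210 in set 1 and 1084 against 20272, 10044 and 21442 in set 2, giving -5.38 ± 0.35 (SE, adjusted p = 3.62e-06). Ehd2 (a caveolar ATPase) was 71.6 against 5614 in set 1 and 334 against 8368, 6864 and 8389 in set 2 and Tgfb1i1 (Hic-5, a focal adhesion protein) was 120.4 against 9462 in set 1 and 319.8 against 9218, 3414 and 6255 in set 2; the differences were -5.42 ± 0.68 (SE, adjusted p = 0.000226) and -5.24 ± 0.58 (SE, adjusted p = 0.000125). Tpm2, a tropomyosin, was the member not called (-0.97 ± 0.58 SE, adjusted p = 0.262). Of 16 stromal surface genes, 9 were called lower and 0 higher (median -3.44). Itga11, a collagen-binding integrin, was 39.4 against 23326 in set 1 and 649.6 against 48278, 303 and 2477 in set 2. It ranged widely among the somatic samples, being below OSKM iPS2 in MAF, and the difference was -5.78 ± 1.63 (SE, adjusted p = 0.0246). The call for Itga11 (adjusted p = 0.508) was lost without OSKM iPS1 or MEF1. Cd34 and Itga5 were not called, at -1.96 ± 0.84 (SE, adjusted p = 0.116) and -1.47 ± 0.76 (SE, adjusted p = 0.194).

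Of 14 secreted factors, 10 were called lower and 0 higher (median -3.63, and of the calls 6 held without OSKM iPS2 and 7 without OSKM iPS1). Cxcl12, a chemokine of stroma, was 75.2 in OSKM iPS1 and 13769 in MEF1, and 502 in OSKM iPS2 against 5146, 12812 and 4902 in MNF, MAF and ADSC, giving -5.64 ± 0.76 (SE, adjusted p = 0.000363). Igfbp7, which binds insulin-like growth factors, was 490.4 against 65279 in set 1 and 3920.2 against 52953, 65498 and 65498 in set 2, giving -5.51 ± 1.25 (SE, adjusted p = 0.00843); MEF1, MAF and ADSC were close to the usual upper limit of scanner intensities, so this difference may be understated. Tgfb3 was 57.2 against 3696 in set 1 and 102 against 2895, 2004 and 2291 in set 2, giving -5.28 ± 0.40 (SE, adjusted p = 1.24e-05). Dkk3, a secreted Dickkopf family protein, was 260.2 against 9509 in set 1 and 548 against 17412, 20272 and 1480.4 in set 2, giving -4.53 ± 1.14 (SE, adjusted p = 0.0141). Inhba, a subunit of activin, was not called (-2.05 ± 1.25 SE, adjusted p = 0.267), being high in ADSC alone (57.2 against 89.9 in set 1 and 44.9 against 73.7, 295 and 5529 in set 2). For Dkk3 (adjusted p = 0.0965), the call did not hold without OSKM iPS2. Leaving out OSKM iPS1 or MEF1 ended the call for Igfbp7 (adjusted p = 0.124) and Dkk3 (adjusted p = 0.0999).

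**Figure D3:**
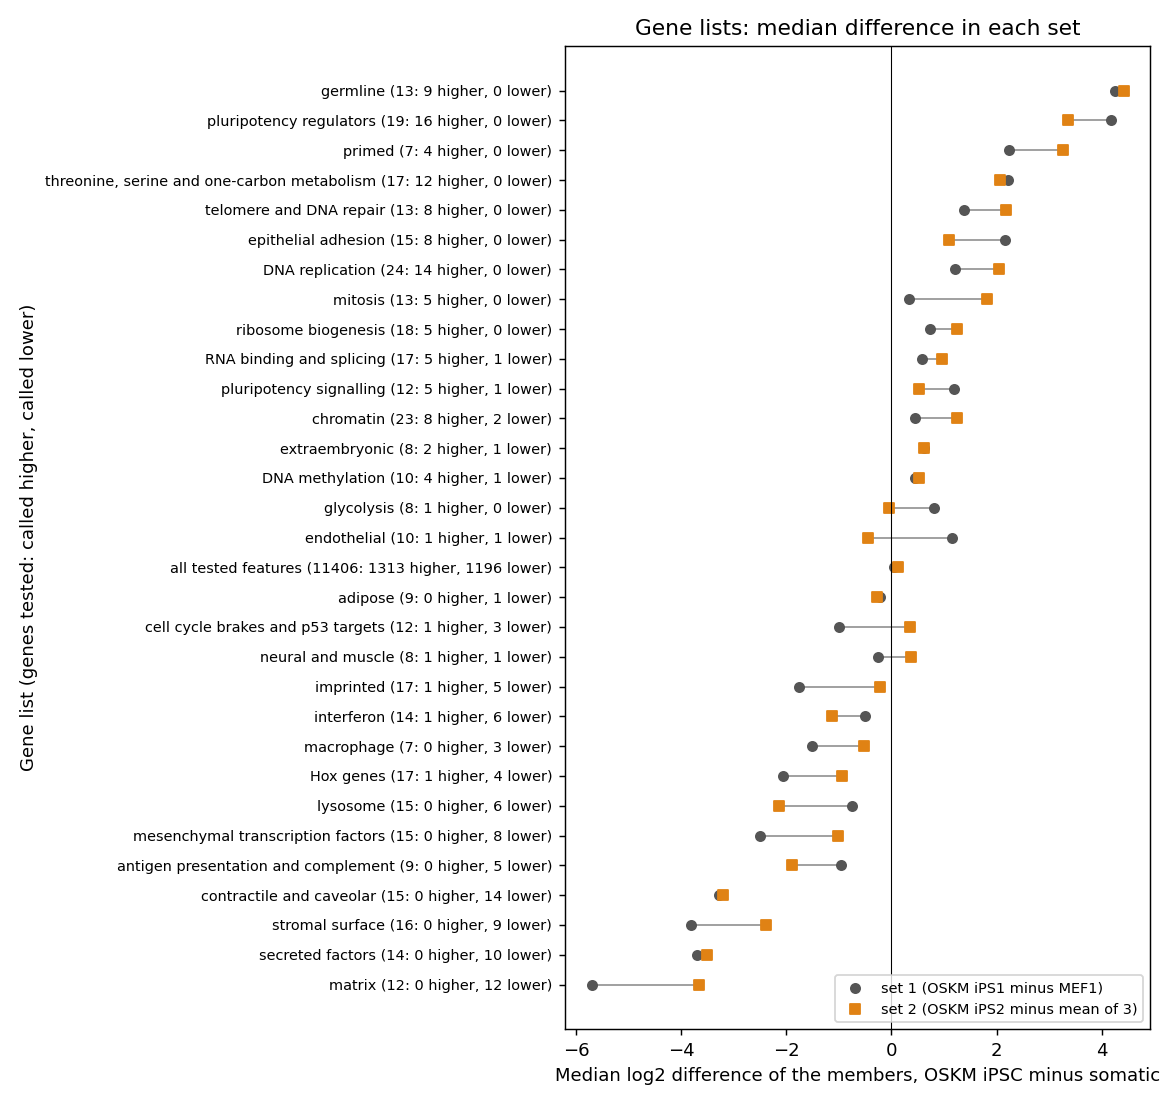
Median log2 difference of the measured members of each gene list with at least 7 of them, in set 1 (grey circles) and set 2 (orange squares), ordered by the median of the mean difference; the label gives the genes tested and how many were called each way. The germline and pluripotency lists lie farthest right and the matrix list farthest left; all tested features lie near 0.

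Genes of innate immunity, antigen presentation and the lysosome were lower in part. The interferon, antigen presentation and lysosome lists had 42.9, 55.6 and 40% called lower, against 10.5% of all features. Of 14 interferon genes, 6 were called lower and 1 higher (median -0.99, and of the calls 0 held without OSKM iPS2 and 5 without OSKM iPS1). Irf7, the regulator of the interferon response, was 59.2 in OSKM iPS1 and 354 in MEF1, and 50.4 in OSKM iPS2 against 5620.5, 1874 and 2295 in MNF, MAF and ADSC, giving -4.21 ± 0.49 (SE, adjusted p = 0.000153). MNF was the highest of the somatic samples. The GTPases Gbp2 and Gbp3 gave -2.44 ± 0.68 (SE, adjusted p = 0.0234) and -1.87 ± 0.52 (SE, adjusted p = 0.0223), and Ifitm3, a membrane protein that restricts viruses, was 13915 against 35689 in set 1 and 8591 against 50528, 46152 and 37917 in set 2, giving -1.87 ± 0.41 (SE, adjusted p = 0.00741). The member called higher was Ifitm1 at 1.28 (adjusted p = 0.0315 in limma), named after its value was seen. It made up 7.14% of the list, where 11.5% of all features were called higher. Of 9 genes of antigen presentation and complement, 5 were called lower and 0 higher, and of the calls 2 held without OSKM iPS2 and 5 without OSKM iPS1. B2m, the light chain of MHC class I, was 2081 against 25500 in set 1 and 2618 against 49004, 30648 and 29586 in set 2, giving -3.69 ± 0.57 (SE, adjusted p = 0.000956). Its somatic samples were all above the OSKM lines, as for most features called lower. Psmb8, an immunoproteasome subunit, was 69.9 against 450.1 in set 1 and 188 against 4659, 1201 and 1178 in set 2, giving -3.00 ± 0.57 (SE, adjusted p = 0.00328). Of the complement genes, Serping1 gave -1.61 in set 1 and -4.87 in set 2 and Cfb gave -0.68 in set 1 and -5.55 in set 2, with means of -3.24 ± 0.76 (SE, adjusted p = 0.0102) and -3.11 ± 0.82 (SE, adjusted p = 0.0179). Set 1 minus set 2 was 3.27 ± 1.53 (SE, adjusted p = 0.799) for Serping1 and 4.87 ± 1.64 (SE, adjusted p = 0.658) for Cfb. Leaving out OSKM iPS2 ended the call for Irf7 (adjusted p = 0.0565), Gbp2 (adjusted p = 0.186), Gbp3 (adjusted p = 0.321), Ifitm3 (adjusted p = 0.226), Serping1 (adjusted p = 0.47), Cfb (adjusted p = 0.82) and Psmb8 (adjusted p = 0.0874). Gbp2 (adjusted p = 0.0847) lost the call without OSKM iPS1 or MEF1.

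Of 15 lysosomal genes, 6 were called lower and 0 higher (median -1.62, and of the calls 2 held without OSKM iPS2 and 5 without OSKM iPS1). The protease cathepsin K (Ctsk) was 39.4 against 1178 in set 1 and 53.7 against 3179.6, 2076 and 2569.5 in set 2, giving -5.24 ± 0.40 (SE, adjusted p = 1.24e-05). Gpnmb, a glycoprotein of lysosomes and melanosomes, was 134 against 3058 in set 1 and 169 against 9849, 11052 and 2681 in set 2, giving -4.90 ± 0.77 (SE, adjusted p = 0.00103). Ctsh was 289 against 4299 in set 1 and 485 against 6527, 7072 and 12776 in set 2 and Ctsb was 129 against 1231 in set 1 and 231 against 3293, 3931 and 1113 in set 2; the differences were -4.00 ± 0.79 (SE, adjusted p = 0.00394) and -3.32 ± 0.61 (SE, adjusted p = 0.00273). Every somatic sample was above the OSKM lines for these 4 genes; 22.1% of all features and 95.7% of those called lower were below every somatic sample of their set in both OSKM lines. Lgmn and Laptm4a were not called, at -1.89 ± 1.00 (SE, adjusted p = 0.202) and -1.62 ± 0.66 (SE, adjusted p = 0.1). Without OSKM iPS2 the call was lost for Ctsh (adjusted p = 0.0747) and Ctsb (adjusted p = 0.0566).

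Macrophage markers did not move together, and those that were lower in OSKM iPSC differed among the somatic samples. The macrophage list had 42.9% called lower, against 10.5% of all features. Cd68, Ptprc and Itgam were not called, at 0.19, -1.02 and -0.56 (adjusted p = 0.935, 0.0979 and 0.477 in limma). Of 7 macrophage genes tested, 3 were called lower, 0 higher and 4 were not called, and of the calls 1 held without OSKM iPS2 and 0 without OSKM iPS1. Fcer1g, an Fc receptor chain, was 181 in OSKM iPS1 and 2051 in MEF1, and 251 in OSKM iPS2 against 607, 9196 and 528 in MNF, MAF and ADSC, giving -3.01 ± 0.91 (SE, adjusted p = 0.0336). The complement component C1qc was 69.9 against 495 in set 1 and 74.9 against 123, 1184 and 269 in set 2, giving -2.50 ± 0.67 (SE, adjusted p = 0.0199). C1qa, measured only in set 1, was 36 in OSKM iPS1 and 3436 in MEF1, and Lyz1, measured only in set 2, was 18 in OSKM iPS2 against 199, 5836 and 132 in MNF, MAF and ADSC. MAF was the highest of set 2 for Fcer1g, C1qc and Lyz1. The summed intensity of the 7 genes was 19433 in OSKM iPS1 and 5309.7 in MEF1, and 12636 in OSKM iPS2 against 2585, 34299 and 1765 in MNF, MAF and ADSC, and most of it in the OSKM lines was Laptm5 (17749 against 1398 in set 1 and 11395 against 1257, 17038 and 296 in set 2), which was not called (3.14 ± 1.32 SE, adjusted p = 0.108). The part of macrophage RNA in the interferon, complement and lysosomal differences was not tested. In bulk samples, fewer cells of a type and less RNA per cell cannot be told apart. No call was made for Fcer1g (adjusted p = 0.158) and C1qc (adjusted p = 0.125) without OSKM iPS2. The call for Fcer1g (adjusted p = 0.176) and C1qc (adjusted p = 0.117) was lost without OSKM iPS1 or MEF1.

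Genes of DNA replication were in part higher, and most mitotic genes were not called. Of 24 replication genes, 14 (58.3%) were called higher and 0 lower (median 1.57), where 11.5% of all features were called higher. Mcm10, which helps to load polymerase at origins, was 12897 in OSKM iPS1 and 2076 in MEF1, and 18009 in OSKM iPS2 against 1329, 939 and 1607 in MNF, MAF and ADSC, giving 3.24 ± 0.29 (SE, adjusted p = 3.11e-05). The licensing factor Cdt1 was 10248 against 2758 in set 1 and 14395 against 1838, 2036 and 2158 in set 2, giving 2.37 ± 0.24 (SE, adjusted p = 6.91e-05). Mcm2, a helicase subunit, was 3189 against 1249 in set 1 and 4868 against 440.4, 631 and 711 in set 2, giving 2.21 ± 0.42 (SE, adjusted p = 0.00326), and Orc1, of the origin recognition complex, was 753 against 162 in set 1 and 1259 against 179.9, 64.5 and 146 in set 2, giving 2.81 ± 0.50 (SE, adjusted p = 0.00215). For these 4 genes, too, the groups of each set did not overlap, as for 98.5% of the features called higher and 29% of all. Of 13 mitotic genes, 5 (38.5%) were called higher and 0 lower. Espl1 (separase) was 4792 against 1876 in set 1 and 6169 against 620.0, 376 and 561 in set 2, giving 2.48 ± 0.38 (SE, adjusted p = 0.000809). The kinases Aurka and Bub1b gave 1.47 ± 0.43 (SE, adjusted p = 0.0301) and 1.43 ± 0.36 (SE, adjusted p = 0.0154), from differences of 0.48 in set 1 and 2.46 in set 2 for Aurka and 0.32 in set 1 and 2.53 in set 2 for Bub1b. The spindle kinase Ttk gave 1.71 ± 0.33 (SE, adjusted p = 0.00347). Of the replication calls, 4 held without OSKM iPS2 and 12 without OSKM iPS1. Of the mitotic calls, 0 held without OSKM iPS2 and 5 without OSKM iPS1. For Orc1 (adjusted p = 0.103), Mcm2 (adjusted p = 0.239), Espl1 (adjusted p = 0.185), Ttk (adjusted p = 0.164), Aurka (adjusted p = 0.741) and Bub1b (adjusted p = 0.803), the call did not hold without OSKM iPS2.

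A list of cell cycle brakes and p53 targets, which also holds cyclins, was mostly not called. Of 12 genes, 1 (8.33%) was called higher, 3 (25%) lower and 8 were not called, where 11.5% of all features were called higher and 10.5% lower. Cdkn2b (p15), an inhibitor of Cdk4 and Cdk6, was 124 in OSKM iPS1 and 8746 in MEF1, and 816 in OSKM iPS2 against 2013, 5664 and 4331 in MNF, MAF and ADSC, giving -4.16 ± 0.56 (SE, adjusted p = 0.00037). The G1 cyclin Ccnd2 was 364 against 7816 in set 1 and 917 against 6370.4, 7856 and 6368 in set 2, giving -3.66 ± 0.38 (SE, adjusted p = 8.34e-05), while cyclin E1 (Ccne1), which drives S-phase entry, was the member called higher at 2307 against 662 in set 1 and 3955 against 793, 837 and 1398 in set 2, giving 1.91 ± 0.42 (SE, adjusted p = 0.00677). Plk2, a p53 target, was 1322 against 8720.1 in set 1 and 2481 against 8423, 10997 and 5084 in set 2, giving -2.19 ± 0.57 (SE, adjusted p = 0.0166). Leaving out OSKM iPS2 ended the call for Plk2 (adjusted p = 0.0818) and Ccne1 (adjusted p = 0.112). Leaving out OSKM iPS1 or MEF1 ended the call for Cdkn2b (adjusted p = 0.0642) and Plk2 (adjusted p = 0.156).

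DNA repair and telomere genes were in part higher: 8 of 13 were called higher and 0 lower (median 1.84, and of the calls 2 held without OSKM iPS2 and 7 without OSKM iPS1). Msh6, of mismatch repair, was 27406 against 4312 in set 1 and 41415 against 3098, 3448 and 2386 in set 2, giving 3.24 ± 0.28 (SE, adjusted p = 2.48e-05). Rad54l, of homologous recombination, was 6141 against 923 in set 1 and 4595 against 733, 649 and 814 in set 2, giving 2.69 ± 0.31 (SE, adjusted p = 0.000143). Both were above every somatic sample, as were most features called higher. Parp1 and the exonuclease Exo1 gave 2.42 ± 0.44 (SE, adjusted p = 0.00253) and 2.31 ± 0.39 (SE, adjusted p = 0.00165). Without OSKM iPS2 the call was lost for Parp1 (adjusted p = 0.122) and Exo1 (adjusted p = 0.232). Pot1a, of the telomere cap, and Chek2 were not called, at 1.06 ± 0.38 (SE, adjusted p = 0.0659) and 1.21 ± 0.45 (SE, adjusted p = 0.0742). The repair and telomere list had 61.5% called higher, against 11.5% of all features.

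Enzymes of DNA methylation and chromatin changed in part. The DNA methylation and chromatin lists had 40 and 34.8% called higher, against 11.5% of all features. Of 10 DNA methylation genes, 4 were called higher and 1 lower, and of the calls 1 held without OSKM iPS2 and 3 without OSKM iPS1. Dnmt3l, a cofactor of the de novo methyltransferases, was 3827 in OSKM iPS1 and 38 in MEF1, and 8777 in OSKM iPS2 against 293, 211 and 457 in MNF, MAF and ADSC, giving 5.75 ± 0.45 (SE, adjusted p = 1.33e-05). Dnmt3b, a de novo methyltransferase, was 2259.7 against 128 in set 1 and 5836 against 318, 61.4 and 44.9 in set 2, giving 5.03 ± 0.81 (SE, adjusted p = 0.00115). Uhrf1, which guides maintenance methylation, was 16956 against 4639 in set 1 and 12522 against 4109, 2272 and 2199 in set 2, giving 2.03 ± 0.43 (SE, adjusted p = 0.0056). The member called lower was Mbd2, a reader of methylated DNA, at -2.12 ± 0.62 (SE, adjusted p = 0.0282). It made up 10% of the list, near the 10.5% of all features called lower. Tet3 and Tdg, which act in demethylation, were not called, at -0.43 ± 0.32 (SE, adjusted p = 0.377) and 0.52 ± 0.31 (SE, adjusted p = 0.249). Of 23 chromatin genes, 8 were called higher and 2 lower, and of the calls 4 held without OSKM iPS2 and 9 without OSKM iPS1. Cbx7, the polycomb subunit of ESC, was 6230.3 against 279.6 in set 1 and 11768 against 264, 621 and 229.6 in set 2, giving 4.81 ± 0.39 (SE, adjusted p = 1.58e-05). Mtf2, a polycomb partner, was 3927 against 822 in set 1 and 4705 against 302, 640.2 and 549.6 in set 2, giving 2.78 ± 0.55 (SE, adjusted p = 0.00394). Hells, a remodeler needed for DNA methylation, gave 2.50 ± 0.42 (SE, adjusted p = 0.00153), and the H3K9 methyltransferase gene Suv39h2 gave 2.43 ± 0.31 (SE, adjusted p = 0.000275). The members called lower were Smarca2 and Smarcc2, subunits of SWI/SNF remodelers, at -2.40 and -2.28 (adjusted p = 0.00898 and 0.0234 in limma), named after their values were seen. They made up 8.70% of the list, where 10.5% of all features were called lower. The polycomb core gene Suz12 was not called (1.54 ± 0.61 SE, adjusted p = 0.0928). No call was made for Dnmt3b (adjusted p = 0.0629), Mbd2 (adjusted p = 0.087), Uhrf1 (adjusted p = 0.108), Mtf2 (adjusted p = 0.133) and Hells (adjusted p = 0.0734) without OSKM iPS2. Mbd2 (adjusted p = 0.287) lost the call without OSKM iPS1 or MEF1.

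On a list of threonine, serine and one-carbon metabolism, 12 of 17 genes (70.6%) were called higher and 0 lower (median 2.29). Over all features 11.5% were called higher. The list, written with earlier results of these data known, also holds enzymes of nucleotide and NAD metabolism. Among its 12 calls are Qprt and Upp1, 2 of the 10 largest rises. Besides Qprt and Upp1, Gldc, of the glycine cleavage system, was 1148 against 221 in set 1 and 2703 against 211, 250.3 and 282 in set 2, giving 2.92 ± 0.64 (SE, adjusted p = 0.00718), and Shmt1, which links serine to folate, was 4543 against 643 in set 1 and 4669.7 against 457, 489 and 873 in set 2, giving 2.91 ± 0.40 (SE, adjusted p = 0.000441). The mitochondrial enzyme gene Mthfd2 was not called (-0.35 ± 0.70 SE, adjusted p = 0.766). Of the 12 calls, 4 held without OSKM iPS2 and 10 without OSKM iPS1. Of 8 glycolysis genes, 1 (12.5%) was called higher, near the 11.5% of all features, and 0 lower. That gene, hexokinase 2 (Hk2), was 18159 against 4673 in set 1 and 25224 against 2552, 9027 and 10106 in set 2, giving 2.00 ± 0.51 (SE, adjusted p = 0.0154). Aldoc was not called (2.44 ± 1.04 SE, adjusted p = 0.114). Of 18 genes of ribosome biogenesis, 5 were called higher and 0 lower (median 1.11, and of the calls 0 held without OSKM iPS2 and 5 without OSKM iPS1); Gar1, of the H/ACA particles, was 10803 against 4996 in set 1 and 14795 against 2807, 2619 and 3459 in set 2, giving 1.72 ± 0.26 (SE, adjusted p = 0.000861), and Rrp12 gave 1.83 ± 0.51 (SE, adjusted p = 0.0242). For Rrp12 (adjusted p = 0.385), Gar1 (adjusted p = 0.122), Gldc (adjusted p = 0.172) and Hk2 (adjusted p = 0.158), the call did not hold without OSKM iPS2. The call for Hk2 (adjusted p = 0.0591) was lost without OSKM iPS1 or MEF1.

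RNA-binding proteins included fetal regulators of translation that rose and a splicing factor that fell. The latter made up 5.88% of the list, where 10.5% of all features were called lower. The share of the list called higher was 29.4%, against 11.5% of all features. Of 17 genes, 5 were called higher and 1 lower, and of the calls 1 held without OSKM iPS2 and 2 without OSKM iPS1. Lin28b, which blocks let-7 maturation, was 1338 in OSKM iPS1 and 35.8 in MEF1, and 2447 in OSKM iPS2 against 39.6, 40.9 and 60.7 in MNF, MAF and ADSC, giving 5.48 ± 0.54 (SE, adjusted p = 5.4e-05). Igf2bp1, an mRNA-binding oncofetal protein, was 4760.5 against 182 in set 1 and 4801 against 575, 87.8 and 31.1 in set 2, giving 5.04 ± 1.02 (SE, adjusted p = 0.00454). Mbnl1, a splicing factor of differentiated cells, was 869.8 against 9179.8 in set 1 and 886 against 1174, 11975 and 7029 in set 2, giving -2.89 ± 0.75 (SE, adjusted p = 0.017). Its relative Mbnl2 was not called (-2.06 ± 0.74 SE, adjusted p = 0.0645). Rbm47 gave 2.05 ± 0.60 (SE, adjusted p = 0.0283). Leaving out OSKM iPS2 ended the call for Igf2bp1 (adjusted p = 0.0927), Mbnl1 (adjusted p = 0.0995) and Rbm47 (adjusted p = 0.139). Leaving out OSKM iPS1 or MEF1 ended the call for Mbnl1 (adjusted p = 0.125) and Rbm47 (adjusted p = 0.166).

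Hox and imprinted genes differed among the somatic samples as well as from the OSKM lines. The Hox and imprinted lists had 23.5 and 29.4% called lower, against 10.5% of all features. Of 17 Hox genes, 4 were called lower, 1 higher and 12 were not called (median -1.41, and of the calls 1 held without OSKM iPS2 and 3 without OSKM iPS1). Hoxb7 was 51 in OSKM iPS1 and 514 in MEF1, and 91.3 in OSKM iPS2 against 874, 767 and 1824 in MNF, MAF and ADSC, giving -3.44 ± 0.44 (SE, adjusted p = 0.00025). Hoxb5 was 63.9 against 660.5 in set 1 and 96.4 against 812, 5294 and 758 in set 2, giving -3.66 ± 0.68 (SE, adjusted p = 0.00287). Both were above the OSKM lines in every somatic sample, as were most features called lower. Hoxb2 was 122 against 2924 in set 1 and 221 against 636, 4948 and 4783 in set 2, giving -4.03 ± 1.14 (SE, adjusted p = 0.0252). Hoxc8 was 83.4 against 3298 in set 1 and 117 against 1869, 72 and 4237 in set 2, giving -4.07 ± 1.23 (SE, adjusted p = 0.0335), and MAF was below OSKM iPS2. The member called higher was Hoxc11 at 1.23 (adjusted p = 0.026 in limma), named after its value was seen. It made up 5.88% of the list, where 11.5% of all features were called higher. Hoxc6 was 132 against 6326 in set 1 and 351 against 5786, 92.2 and 11812 in set 2. Hoxd8 was 107 against 1677 in set 1 and 148 against 1584, 68.9 and 1434 in set 2. Both were also lowest in MAF and were not called, with -3.99 ± 1.46 (SE, adjusted p = 0.0696) and -2.92 ± 1.16 (SE, adjusted p = 0.0922). Without OSKM iPS2 the call was lost for Hoxc8 (adjusted p = 0.114), Hoxb2 (adjusted p = 0.14) and Hoxb5 (adjusted p = 0.0735). Hoxc8 (adjusted p = 0.26) and Hoxb2 (adjusted p = 0.138) lost the call without OSKM iPS1 or MEF1. Tbx15 and Foxd1, position-dependent mesenchymal factors, were not called: Tbx15 was 35 against 8029 in set 1 and 226 against 19420, 115 and 41.8 in set 2 (-4.43 ± 1.84 SE, adjusted p = 0.106), and Foxd1 was 234 against 3387 in set 1 and 119.7 against 127, 112 and 115 in set 2, where the signs of the sets differed.

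Of 17 imprinted genes, 5 were called lower and 1 higher (median -0.63, and of the calls 2 held without OSKM iPS2 and 2 without OSKM iPS1). Igf2, a fetal growth factor, was 531 in OSKM iPS1 and 49210 in MEF1, and 1238 in OSKM iPS2 against 37917, 3417 and 384 in MNF, MAF and ADSC. It was high in MEF1 and MNF and below OSKM iPS2 in ADSC, and was not called (-4.05 ± 1.60 SE, adjusted p = 0.0896). The neighbouring non-coding gene H19 followed the same order, 457 against 48581 in set 1 and 2286 against 35987, 2396 and 258 in set 2, and was not called (-3.52 ± 1.93 SE, adjusted p = 0.219). The cell cycle inhibitor Cdkn1c gave -3.37 in set 1 and 0.78 in set 2 and was not called. Grb10, an adaptor that restrains insulin signalling, was 5803 against 35085 in set 1 and 2281 against 14770, 17978 and 8832 in set 2, giving -2.57 ± 0.40 (SE, adjusted p = 0.000921). It was above the OSKM lines in every somatic sample, as were most features called lower. Phlda2, of the placenta, was 3572 against 86 in set 1 and 6589.8 against 91.2, 81.6 and 109 in set 2, giving 5.76 ± 1.04 (SE, adjusted p = 0.00247). It was the member called higher, 5.88% of the list, where 11.5% of all features were called higher. Plagl1 and Sgce gave -2.30 ± 0.65 (SE, adjusted p = 0.0247) and -2.60 ± 0.75 (SE, adjusted p = 0.0267). No call was made for Phlda2 (adjusted p = 0.0623), Sgce (adjusted p = 0.067) and Plagl1 (adjusted p = 0.06) without OSKM iPS2. The call for Sgce (adjusted p = 0.357) and Plagl1 (adjusted p = 0.365) was lost without OSKM iPS1 or MEF1.

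**Figure D4:**
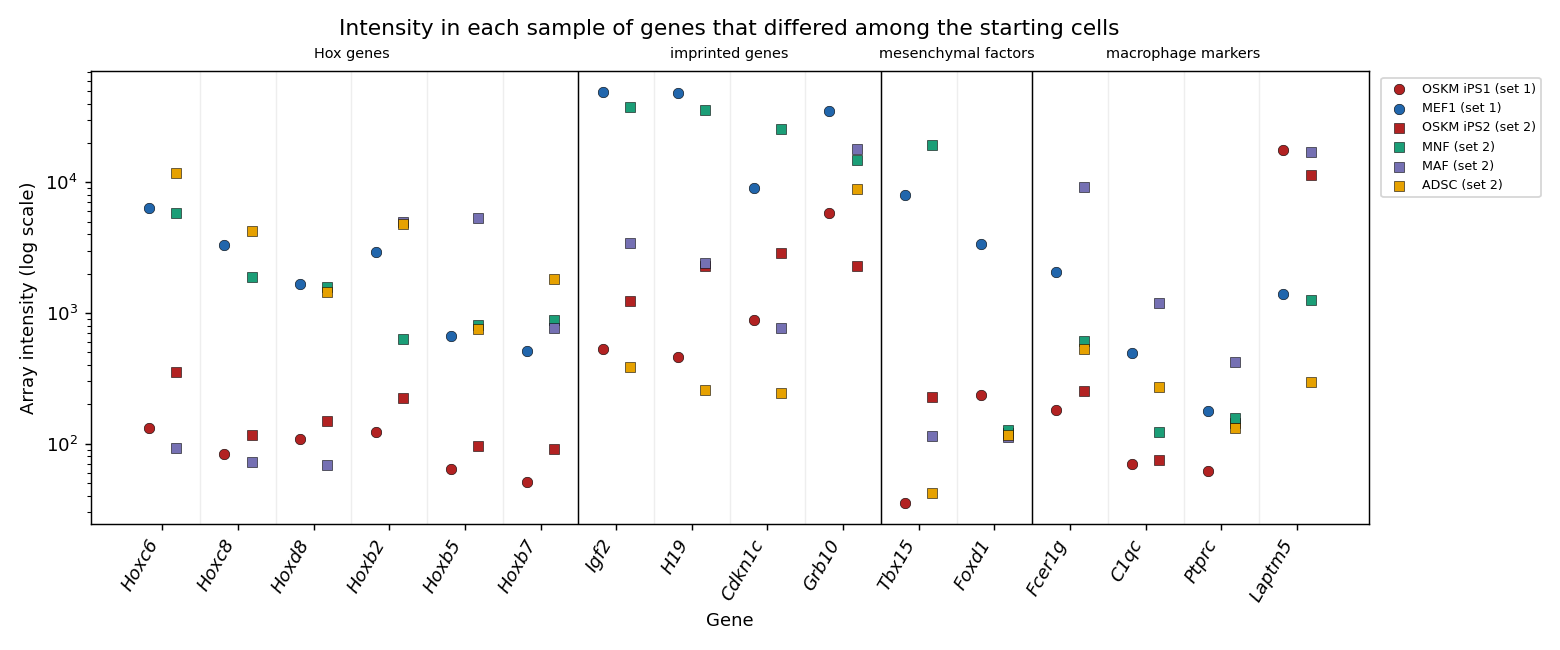
Array intensity (log axis) in each of the 6 samples for 16 Hox, imprinted, mesenchymal and macrophage genes, chosen after their values were seen; circles are set 1, squares set 2, red the OSKM lines, and each point is 1 sample. Igf2 and H19 are highest in MEF1 and MNF, Hoxc6, Hoxc8 and Hoxd8 are lowest in MAF, and Fcer1g and C1qc are highest in MAF.

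The difference between the sets was tested directly for each gene. At an unadjusted p under 0.05 there were 713 features, and 2 (0.0175%) were called: Col2a1 and Zfp341. Between OSKM iPSC and the ESC of the same sets, 450 features had an unadjusted p under 0.05 and 1 (0.00877%) was called. That gene, Sardh, which oxidises sarcosine, was 3714 in OSKM iPS1 and 568 in MEF1, and 5439 in OSKM iPS2 against 559.7, 269.7 and 284 in MNF, MAF and ADSC, with 28.7 in ESC1 and 4191 in ESC2. It was higher than in ESC by 3.70 ± 0.38 (SE, adjusted p = 0.00656), from 7.02 in set 1 and 0.38 in set 2, and this call was lost without OSKM iPS1 and with group and set as additive terms. It was higher than in somatic cells by 3.33 ± 0.35 (SE, adjusted p = 8.28e-05). A difference from ESC that was not called does not show equality.

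The called genes were looked up in samples that the calls had not used. Set 4, normalized apart, holds the embryonic fibroblasts MEF2 and 2 iPSC lines named SKM-FSK. They were made from embryonic fibroblasts treated with the compound that the labels abbreviate as F. The SKM in their name holds the letters that OSKM uses for Sox2, Klf4 and c-Myc. By that name, these lines share factors with the OSKM lines and are not a separate kind of reprogramming. With 1 fibroblast sample this comparison has no test. Of 1300 genes called higher and measured there, 887 (68.2%) were at least 2-fold above MEF2 in both lines and 4 were at least 2-fold below in both, where 18.7% of all 11291 measured features were above. Of 1190 called lower, 932 (78.3%) were at least 2-fold below in both lines and 1 was above, where 15.5% of all were below. The median difference was 1.60 for the features called higher, -1.98 for those called lower and 0.13 for all.

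**Figure D5:**
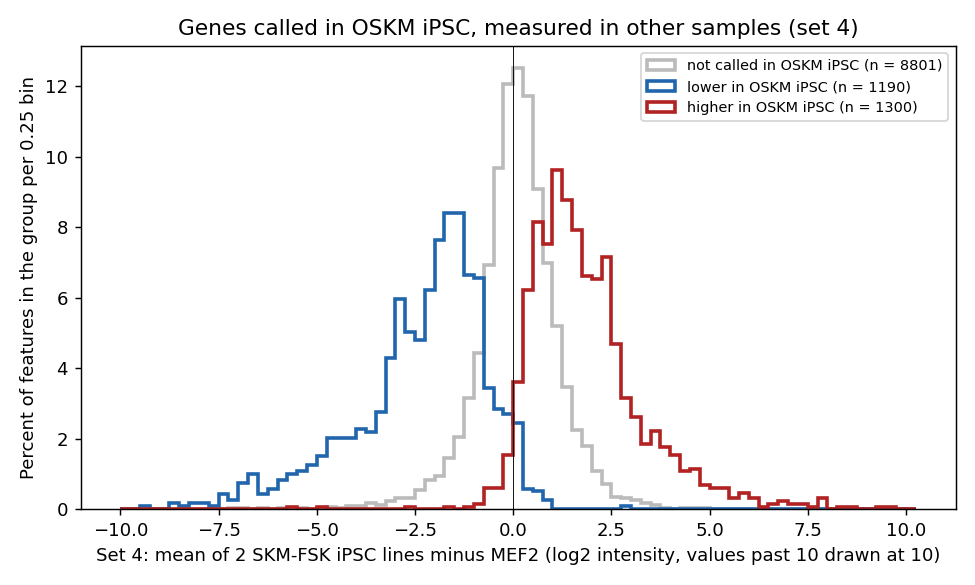
Distribution of the mean log2 difference of the 2 SKM-FSK iPSC lines minus MEF2 in set 4 (x axis), as a percent of each group per bin of 0.25, for features called higher (red), lower (blue) and not called (grey) in OSKM iPSC. The red distribution lies mostly above 0 and the blue mostly below; their medians are 1.60 and -1.98.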

How the data were processed

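Total RNA was labelled with Cy5 and hybridised to the Mouse OneArray v2, per the labels' protocols. The authors deposited 1 intensity per probe and sample on a linear scale and normalized 5 sets of samples separately, per the series' design text; how they normalized, scanned and filtered probes is not given in the sources used here. Whether replicates were separate cultures is not stated, so p-values measure the spread between these samples.

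Probes (26423) were named from the platform annotation (21876 with 1 gene, 4547 with none), and 21825 gene IDs matched RefSeq GRCm38.p6. Intensities were taken to log2 with no offset, and 1 probe was kept per gene, the rule being the probe measured in more of sets 1 and 2 and then the brightest. limma 3.58.1 in R 4.3.3 fitted 1 mean per group and set over the 16 samples of sets 1 and 2 (8 residual degrees of freedom), with Benjamini-Hochberg adjustment over 11406 features. The script was tested on simulated data. Members and gene lists were chosen with earlier results of these data known. Named genes are the 10 largest called rises and falls, the reprogramming factors and Nanog, up to 4 called and 2 uncalled genes per list, and genes called for the set difference or against ESC; cell type markers are named besides. Alternatives covered the model, normalization, filter, offset, probe rule, variance prior and each sample left out; a floor of 50 was chosen after seeing the data. The promoter windows are from RefSeq.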

Additional observations from a re-analysis of the deposited data

Results flagged for a closer look

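The difference between the sets was itself past the threshold for 2 genes. Col2a1, the cartilage collagen, was 158 in OSKM iPS1 and 4863 in MEF1, and 452 in OSKM iPS2 against 44.8, 64.5 and 103 in MNF, MAF and ADSC. It was lower than in MEF1 in set 1 and higher than in every somatic sample in set 2 (-4.95 in set 1 and 2.76 in set 2), and the set 1 difference minus the set 2 difference was -7.70 ± 1.00 (SE, adjusted p = 0.0439). Zfp341, a zinc finger gene, was 452 in OSKM iPS1 and 392 in MEF1, and 8427 in OSKM iPS2 against 344, 236 and 206 in MNF, MAF and ADSC. It differed little in set 1 and was high in set 2 (0.21 in set 1 and 5.04 in set 2), as in ESC (311 in ESC1 and 6358 in ESC2), and the difference between the sets was -4.84 ± 0.64 (SE, adjusted p = 0.0439). Neither was called with MAF or ADSC left out, with a variance prior that follows intensity, or with a floor of 50.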

How the results depend on the processing

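No named gene that was called, in the main fit or in an alternative, changed direction under the alternatives run. Some uncalled genes with opposite signs in the sets did when only 1 set was left. Tbx3, for example, had a mean of 1.26 and was -0.37 in set 2 alone. The 1313 higher and 1196 lower calls became 652 and 536 with only the 6 OSKM and somatic samples in the fit. Leaving out 1 sample gave 419 to 1522 higher and 555 to 1309 lower calls, the lowest counts without OSKM iPS2 and the highest without MNF. All other settings stayed between 1239 and 1509 higher and between 1001 and 1246 lower. The count for the set difference (2) was 0 with an intensity trend in the variance prior and 0 with a floor of 50, and 0 to 10 when 1 sample was left out, with 10 without MNF. The count against ESC (1) was 2 with additive terms over 30 samples, neither of them Sardh, 0 with additive terms over 16, and 0 to 1 when 1 sample was left out. Of the 116 named genes called against somatic cells, 54 held with every sample left out in turn, 54 were lost without OSKM iPS2, 26 without OSKM iPS1, 26 without MEF1, and 0 without MNF, MAF or ADSC. No paired analysis was possible because the numbers 1 and 2 of the OSKM and ESC lines in the labels follow the sets, which the comparisons within sets already hold apart, and MNF, MAF and ADSC carry none; with group and set as additive terms over 16 samples the calls numbered 1509 and 1246. Genes near background have uncertain size, since no detection calls were used here.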

Other observations

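Markers of lineages outside the comparison were mostly not called. Over all features, 11.5% were called higher and 10.5% lower. Of 8 extraembryonic genes, 2 (25%) were called higher and 1 (12.5%) lower. Gata6, a factor of primitive endoderm, was the one called lower, at 131 against 1878 in set 1 and 300.2 against 1288, 7052 and 4500 in set 2, giving -3.68 ± 0.66 (SE, adjusted p = 0.00223). Ascl2, a trophoblast factor, was 284 against 41.2 in set 1 and 527 against 73.7, 289.8 and 89.2 in set 2, giving 2.44 ± 0.56 (SE, adjusted p = 0.00918), and Amn, of visceral endoderm, gave 1.93 ± 0.46 (SE, adjusted p = 0.0116). Of 10 endothelial genes, 10% were called each way, near the shares over all features. Egfl7 was called higher (2.16 ± 0.31 SE, adjusted p = 0.0006) and the receptor Flt1 lower (-3.20 ± 0.82 SE, adjusted p = 0.0155). Of 8 neural and muscle genes, 12.5% were called each way, also near those shares. Nes (nestin) was called lower at 185 against 1176 in set 1 and 214 against 1036, 1008 and 2019 in set 2, giving -2.63 ± 0.61 (SE, adjusted p = 0.00943), and Dcx higher (1.44 ± 0.36 SE, adjusted p = 0.0132). For Ascl2 (adjusted p = 0.0727), Amn (adjusted p = 0.0703), Flt1 (adjusted p = 0.0664), Nes (adjusted p = 0.108) and Dcx (adjusted p = 0.14), the call did not hold without OSKM iPS2. Leaving out OSKM iPS1 or MEF1 ended the call for Ascl2 (adjusted p = 0.0756), Amn (adjusted p = 0.112), Flt1 (adjusted p = 0.177) and Dcx (adjusted p = 0.056). The Y-linked demethylase gene Kdm5d was 42.4 against 314 in set 1 and 70.9 against 176, 315 and 220.2 in set 2, with 89.2 in ESC1 and 77.5 in ESC2, and was called lower (-2.29 ± 0.46 SE, adjusted p = 0.00421). Y-linked Uty, measured only in set 2, was 499.6 in OSKM iPS2 against 573, 610 and 776, with 134 in ESC2. Xist was not called (-0.15 ± 0.38 SE, adjusted p = 0.818). Kdm5d (adjusted p = 0.0769) lost the call without OSKM iPS1 or MEF1.

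Some genes were at least 2-fold changed in opposite directions in the sets; some of those with the largest changes both ways are named, after their values were seen, and none but Col2a1 passed the test of the difference. The calcium-binding protein gene S100a13 was 25277 against 2634 in set 1 and 718 against 2581, 9979.6 and 4106 in set 2, and Rabac1 was 6154 against 586 in set 1 and 1967 against 3267, 9842 and 13813 in set 2. Fgf13 was 216 against 755 in set 1 and 909.9 against 150.4, 73.8 and 84.6 in set 2, and the imprinted gene Mest was 244 against 824 in set 1 and 991 against 754, 138 and 139.8 in set 2. By chromosome, the shares called were compared with those over all features, 11.5% higher and 10.5% lower. Chromosomes 17 and 3 are named after their values were seen, and no test by chromosome was run. On chromosome 17, 15.9% of the 565 genes tested were called higher and 6.19% lower. On chromosome 3 these shares were 7.54% and 16.5% of 491 genes, and on chromosome 18 they were 7.32% and 10.6% of 246 genes.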
